A study of Mus musculus with 4 samples.

Results

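Lgr5, Lef1 and 8 other genes of canonical Wnt signalling were followed in whole spleen from mice with B cell leukaemia and from wild type mice. The 10 genes were chosen by their place in the pathway together with the measured difference between these same groups, since Lgr5 was already known to stand far higher in leukaemic spleen, so every difference given for them is a description with no test. Of the 10 genes, 9 had a probe set with their own symbol as its only symbol, among 19297 genes measured in all, and each of the 9 had 1 such probe set. Tcf7 was not analysed here.

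The 2 leukaemic mice were RBP-J flox/flox;Ren1dcre/cre, that is, cre recombinase sat at both alleles of the renin gene Ren1d and both RBP-J alleles were flanked by loxP sites. The 2 wild type mice were RBP-J flox/flox;Ren1d+/+, so they carried the same floxed RBP-J alleles without cre. All were of the 129Sv background. Leukaemic replicate 1 was a female of 107 days with a spleen of 0.7 g, and leukaemic replicate 2 a male of 93 days with a spleen of 0.47 g. The wild type mice were females of 80 and 81 days with spleens of 0.12 g and 0.16 g. Cre was driven from the renin locus, while RNA came from the unsorted organ. Genotype, age and spleen weight all went with the group, so their parts cannot be told apart.

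Wnt ligands bind Frizzled receptors together with the co-receptors Lrp5 and Lrp6. Without this signal a destruction complex built on Axin marks beta-catenin for degradation; with it, beta-catenin enters the nucleus and joins factors of the TCF/LEF family on target genes. R-spondins bind receptors of the LGR family and take away the membrane ligases RNF43 and ZNRF3, which otherwise remove Frizzleds. In lymphoid tissue, Lef1 is known from mouse B cell precursors and from T cells, and Lgr5 is best known as a stem cell marker of the intestine.

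RefSeq start-site windows, each running from 250 bases before to 50 bases after an annotated start (build GRCm38.p6), matched 8 of the 10 genes with 15 windows; Lgr5 and Znrf3 were not among them. They were searched on both strands for CTTTGA, a core motif of TCF/LEF factors. The letters stood in 1 of the 15 windows, and in 16.0% of 32851 windows of the same length over all genes. That window belongs to the most downstream of the 4 annotated Lef1 starts, at chr3:131156044-131156343 on the plus strand, with matches on the opposite strand beginning at positions -180 and -120, where position -1 is the last base before the start. A longer motif of this family, CTTTGTT, shares its first letters with CTTTGA and so cannot match at the same place; it was found in 1 window, at a downstream Tcf7l2 start, and in 5.85% of all windows. Shown are this Lef1 window, the Lef1 window furthest upstream for comparison (chr3:131110047-131110346, plus strand), and the window of Axin2, a gene widely used as a readout of the pathway (chr11:108920099-108920398, plus strand). Capitals mark CTTTGA as it reads on the printed strand.
Lef1, most downstream start: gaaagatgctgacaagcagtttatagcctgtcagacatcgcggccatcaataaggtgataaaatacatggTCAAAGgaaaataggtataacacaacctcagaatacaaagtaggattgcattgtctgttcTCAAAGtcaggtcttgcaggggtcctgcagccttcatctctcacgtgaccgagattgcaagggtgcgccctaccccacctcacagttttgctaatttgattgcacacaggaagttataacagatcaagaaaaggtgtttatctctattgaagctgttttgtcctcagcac
Lef1, most upstream start: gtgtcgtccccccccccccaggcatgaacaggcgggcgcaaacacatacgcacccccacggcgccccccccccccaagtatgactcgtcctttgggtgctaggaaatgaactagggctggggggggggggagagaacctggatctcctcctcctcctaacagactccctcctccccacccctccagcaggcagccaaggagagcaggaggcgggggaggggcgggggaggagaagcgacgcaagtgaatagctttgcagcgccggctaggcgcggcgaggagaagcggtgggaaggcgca
Axin2: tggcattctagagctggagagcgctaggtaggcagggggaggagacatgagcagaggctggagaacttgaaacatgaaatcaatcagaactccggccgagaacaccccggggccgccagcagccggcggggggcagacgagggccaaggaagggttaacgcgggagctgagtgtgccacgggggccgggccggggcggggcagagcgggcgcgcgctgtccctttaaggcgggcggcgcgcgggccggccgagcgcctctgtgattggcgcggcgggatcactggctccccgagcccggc
The upstream Lef1 window and the Axin2 window hold neither motif, which says only that these letters are not in them. They are rich in G and C, at 67.3% and 70.0% of bases, against 43.7% in the downstream Lef1 window.

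The values below are log2 expression per probe set as the authors deposited them, so a difference of 1 is a doubling. Standard errors (SE) come from a limma fit over all genes. Array medians ran from 7.96 to 8.03. The lower quartile was 6.62 in wild type replicate 2, against 6.43 to 6.47 in the other arrays, so dim genes read higher there. Wild type replicate 2 also held RNA of exocrine pancreas: all 11 measured pancreas genes stood there at least 1 above every other array, with a list mean of 11.52 against 6.48 to 6.60. Genes of B cells had list means of 11.51 to 11.81 over the 4 arrays. The spleen markers Spic and Vcam1 read 10.24 to 11.93 and Nkx2-5 8.45 to 8.85, whereas the leukaemic mean of Tlx1 (8.01, against 8.76 in wild type spleens) was no higher than the highest wild type mean among 24 genes restricted to other organs. All 4 markers were lower in both leukaemic spleens than in both wild type spleens and none was called, with differences of -0.69 for Spic, -0.46 for Vcam1, -0.29 for Nkx2-5 and -0.75 for Tlx1 (limma adjusted p from 0.062 to 0.31). Of the 12 measured red pulp and stroma genes, 7 were lower in both leukaemic spleens and 5 overlapped, with 3 differences above 0. Over all genes, arrays of the groups did not overlap for 49.2%. Rbpj, the floxed gene, which like these 4 markers was named after its values were seen, was at 9.78 and 9.18 in leukaemic spleens and at 9.99 and 9.74 in wild type spleens (probe set 10521913); no source used here says where in the gene the probes of this set lie.

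Among the R-spondin receptors, Lgr5 was much higher in leukaemic spleens, while Lgr4 and Lgr6 differed by 0.31 or less in size. Lgr5 (probe set 10372503, chromosome 10) read 10.38 and 9.77 in leukaemic spleens, against 6.79 and 6.63 in wild type spleens. Both leukaemic values lay far above both wild type values. The difference was 3.37 (SE 0.22), the 8th highest of 19297 genes. The wild type mean of 6.71 ± 0.11 (SD, n = 2) was within the range of 24 genes that are restricted to other organs such as liver, eye, lung or testis (wild type means 3.64 to 8.01, median 6.37), so it is not shown to be above background and the difference is not an exact fold. In whole spleen, more cells of a type and more RNA per cell cannot be told apart.

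Lgr4 (chromosome 2) read 7.67 and 6.31 in leukaemic spleens, against 6.98 and 6.50 in wild type spleens. The leukaemic values enclosed the wild type ones, and the sign of the difference of 0.25 (SE 0.41) depended on the mouse: it was -0.43 without leukaemic replicate 1 and 0.93 without leukaemic replicate 2. With wild type replicate 1 left out the value was 0.49, and with wild type replicate 2 left out 0.01. Lgr6 (chromosome 1) read 7.03 and 7.21 in leukaemic spleens, against 7.42 and 7.43 in wild type spleens. Here the leukaemic values were the lower ones, with a difference of -0.31 (SE 0.14), opposite in sign to that of Lgr5. The wild type means of Lgr4 (6.74) and Lgr6 (7.43) were also in the range of the organ-restricted genes.

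The ligase genes that R-spondins act through were not higher alongside Lgr5. Rnf43 (chromosome 11) read 7.50 and 8.01 in leukaemic spleens, against 8.59 and 8.69 in wild type spleens. Both leukaemic values were lower, with a difference of -0.89 (SE 0.19), the lowest of the 9 genes. Znrf3, its close relative (also chromosome 11), read 8.66 and 7.995 in leukaemic spleens, against 8.63 and 8.75 in wild type spleens. The groups overlapped: leukaemic replicate 1 was level with wild type and leukaemic replicate 2 was lower, giving a difference of -0.37 (SE 0.23). It shrank to -0.03 without leukaemic replicate 2 and was -0.70 without leukaemic replicate 1.

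Axin2, a scaffold of the destruction complex whose gene is itself switched on by beta-catenin in many tissues, was lower in leukaemic spleens. It read 7.03 and 7.01 in leukaemic spleens, against 7.36 and 7.47 in wild type spleens, a difference of -0.40 (SE 0.14). The groups did not overlap, and the leukaemic mice lay within 0.02 of each other. Its wild type mean of 7.41 was in the range of the organ-restricted genes.

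Lef1 (probe set 10496091, chromosome 3), one of the DNA-binding partners of beta-catenin, read 11.09 and 10.82 in leukaemic spleens, against 10.27 and 9.96 in wild type spleens. Both leukaemic values were above both wild type values, by 0.84 on average (SE 0.17), with means of 10.96 ± 0.19 in leukaemic and 10.11 ± 0.22 in wild type spleens (SD, n = 2 each). Unlike the wild type reading of Lgr5, that of Lef1 was above every organ-restricted gene. The difference was 0.69 without wild type replicate 2, the spleen with pancreas RNA, and 0.999 without wild type replicate 1.

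Tcf7l2 (chromosome 19), another TCF factor, read 9.50 and 10.01 in leukaemic spleens, against 9.14 and 9.44 in wild type spleens. The leukaemic values were higher but the nearest ones were close, and the difference of 0.46 (SE 0.21) became 0.21 without leukaemic replicate 2 and 0.72 without leukaemic replicate 1. Ctnnb1 (chromosome 9), which encodes beta-catenin, read 11.73 and 11.71 in leukaemic spleens, against 11.64 and 11.50 in wild type spleens. The 4 spleens lay close together, and the difference of 0.15 (SE 0.14) was 0.086 without wild type replicate 2.

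**Figure D1:**
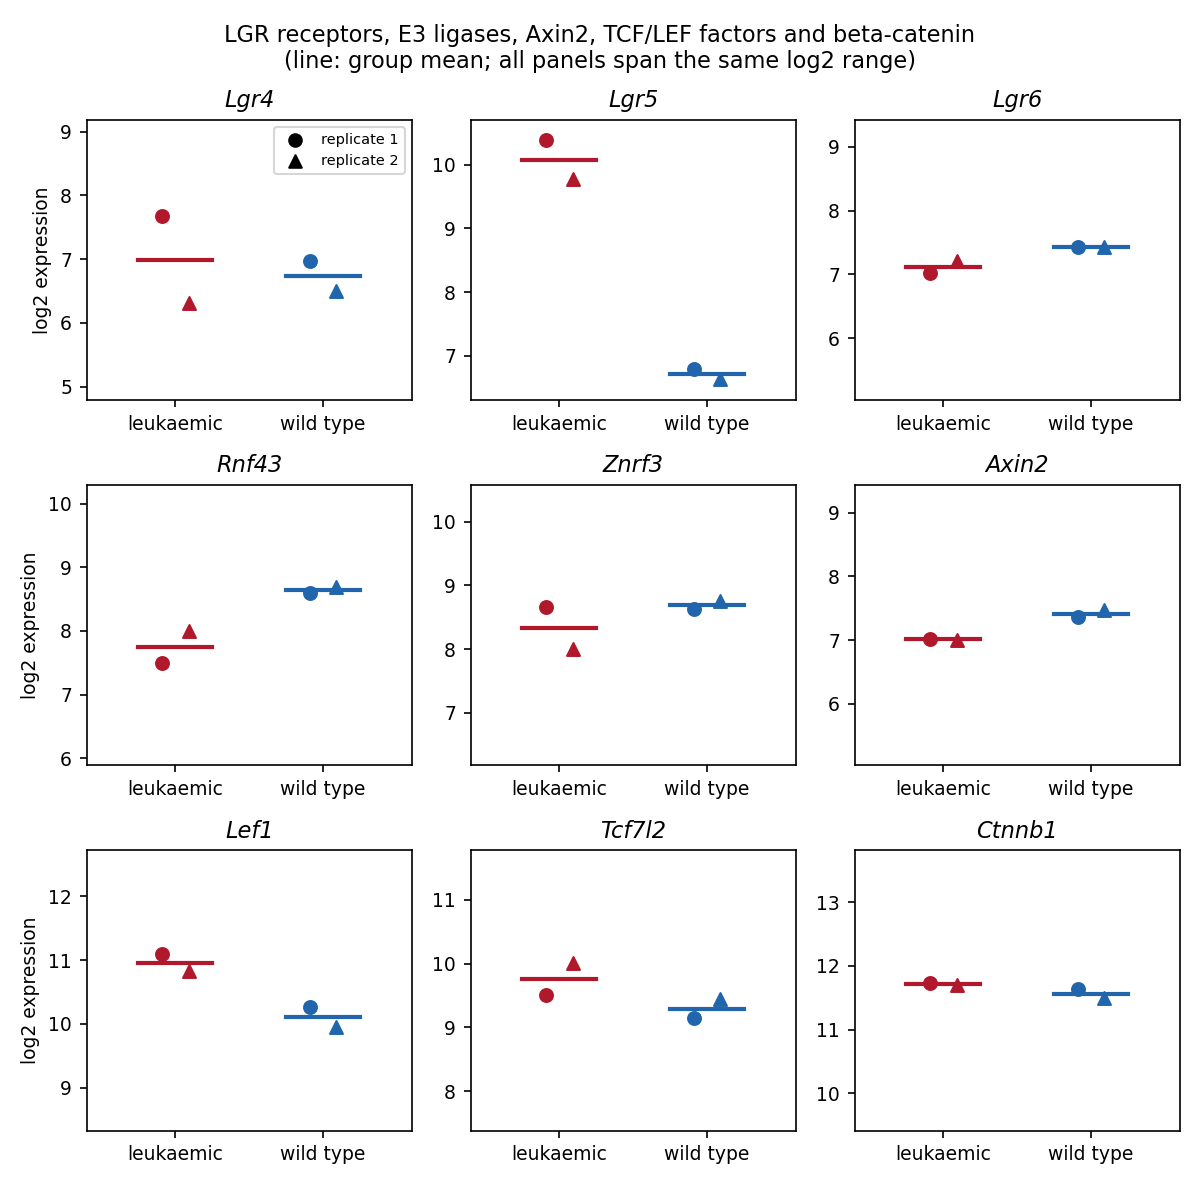
Log2 expression (vertical axes, each spanning the same range) of 9 Wnt pathway genes in leukaemic spleens (left, red) and wild type spleens (right, blue). Circles are replicate 1, triangles replicate 2, and lines group means of 2 mice; Lgr5 separates the groups by 3.37, while the other 8 differ by 0.89 or less in size.

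With limma's adjusted p under 0.05, 1 of the 9 genes was called, Lgr5, where 2.46% of all 19297 genes were called (1.43% higher and 1.03% lower); as these genes were chosen with this contrast in view, nothing is read from that count. Fits without a wild type mouse have 1 residual degree of freedom, so they cannot show whether the call of Lgr5 depends on a particular mouse. The difference of Lgr5 was 3.45 without wild type replicate 1 and 3.29 without wild type replicate 2. Arrays of the groups did not overlap for 7 of the 9 genes, 4 higher and 3 lower in leukaemic spleens, beside 49.2% of all genes. The median difference of the 9 genes was 0.15, against -0.03 over all genes. The 9 genes therefore went both ways: Lgr5, Lef1, Tcf7l2 and Ctnnb1 were higher in both leukaemic mice, Rnf43, Axin2 and Lgr6 lower in both, and Lgr4 and Znrf3 differed between them. Several of these differences were of a common size. As large or larger in size were those of 52.5% of all genes for Ctnnb1, 28.4% for Lgr6, 20.8% for Axin2 and 16.3% for Tcf7l2. The share was 4.38% for Lef1, 3.84% for Rnf43 and 0.047% for Lgr5.

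**Figure D2:**
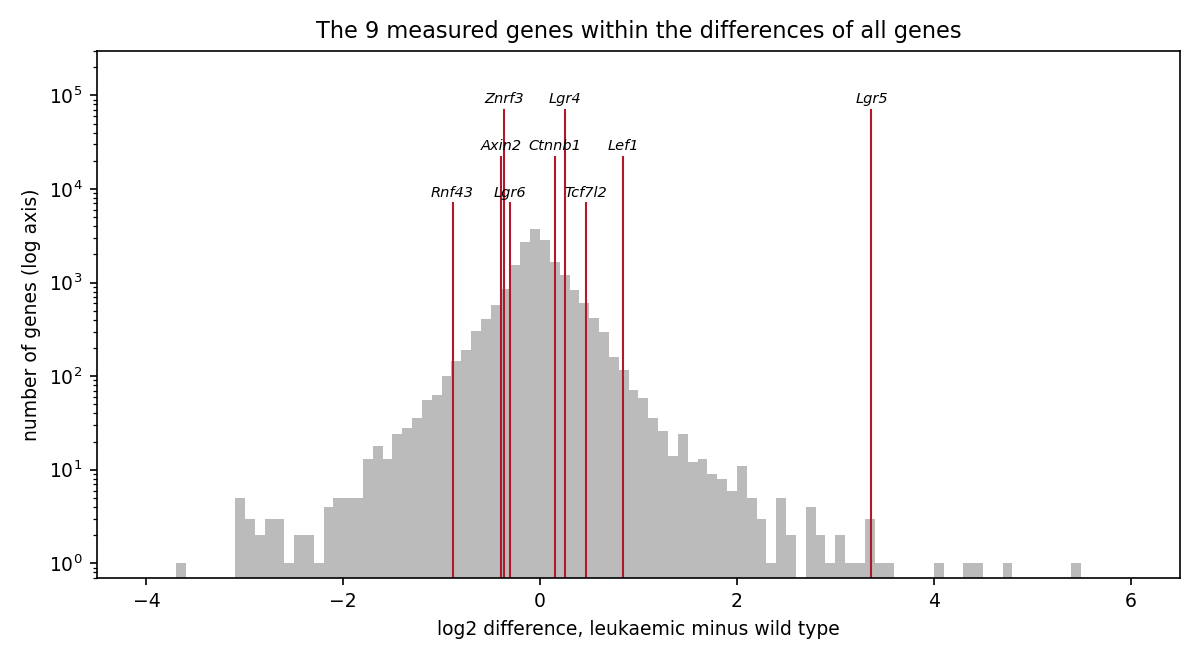
Number of genes (log axis) by log2 difference between leukaemic and wild type spleens for 19297 genes in bins of 0.1 (grey), with red lines at the 9 Wnt pathway genes. Lgr5 at 3.37 lies in the upper tail, and the others lie between -0.89 (Rnf43) and 0.84 (Lef1).

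Lymphocyte markers moved beside these genes. Limma called 12 of 16 precursor B cell genes higher and 0 lower, where 1.43% of all genes were called higher and 1.03% lower. The list mean was 10.33 and 10.32 in leukaemic spleens, against 8.13 and 7.95 in wild type spleens. Igll1, of the surrogate light chain, rose by 5.47 (SE 0.14, limma adjusted p = 5.8e-05), and the aminopeptidase gene Enpep by 4.77 (SE 0.23, adjusted p = 0.00067). Of 19 T cell genes, 18 had a difference below 0, and 7 were called lower and 0 higher. The list mean was 8.26 and 8.85 in leukaemic spleens, against 10.02 and 9.65 in wild type spleens. The T cell receptor chain genes Cd3g and Cd3e were among those called, at -1.78 (SE 0.33, limma adjusted p = 0.049) and -1.70 (SE 0.29, adjusted p = 0.039). Lef1, which both lineages can express, thus went with the precursor B cell list and against the T cell list; their part in its level was not tested.

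Of 10 NK cell genes, 8 had a difference below 0 and 5 were called lower, where 1.03% of all genes were. The receptor genes Ncr1 (-2.29, SE 0.24, limma adjusted p = 0.012) and Klrd1 (-2.05, SE 0.31, adjusted p = 0.032) led them. List means were 6.96 and 7.48 in leukaemic spleens, against 8.61 and 8.24 in wild type spleens. Among 8 genes of B cells in general, 1 was called higher, the transcription factor gene Ebf1 (1.11, SE 0.18, adjusted p = 0.034), and 1 lower, Cd22 (-0.84, SE 0.14, adjusted p = 0.035). In red pulp and stroma 1 of 12 genes was called lower, the T zone chemokine gene Ccl19 (-1.19, SE 0.22, adjusted p = 0.048). Differences were below 0 for 9 of the 12 and above 0 for 3. List means were 9.61 and 9.69 in leukaemic spleens, against 10.08 and 9.96 in wild type spleens. Limma called 0 of 11 exocrine pancreas genes (0 at an unadjusted p under 0.05, where 3989 of all 19297 genes were). Cela1, a pancreatic elastase gene, read 7.67 and 7.77 in leukaemic spleens, against 7.79 and 11.22 in wild type spleens. Leaving out that wild type spleen, replicate 2, the differences were 3.29 for Lgr5, -0.84 for Rnf43, -0.34 for Axin2, 0.61 for Tcf7l2, 0.69 for Lef1, 0.086 for Ctnnb1, -0.31 for Lgr6, -0.30 for Znrf3 and 0.01 for Lgr4.

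Few genes in the rest of the pathway were called. Of 105 other Wnt pathway genes measured, 2 were called lower and 0 higher, or 1.90% called against 2.46% of all genes. The median difference was -0.07, against -0.03 over all genes. Arrays did not overlap for 49 of the 105 (46.7%, against 49.2% of all genes). At an unadjusted p under 0.05 limma had 17 of the 105, against 3989 of all 19297 genes. Counts at that level given below for parts of the pathway are to be read beside the latter. Shares this near those of all genes do not set the pathway apart. For 62 of the 105 the wild type mean was no higher than the highest of the organ-restricted genes. Those 62 are not shown to be above background, which limits what the counts can show. The number of calls moved when a mouse was left out, but those fits have 1 residual degree of freedom and another variance prior. Their counts therefore cannot show whether the calls depend on a particular mouse.

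**Figure D3:**
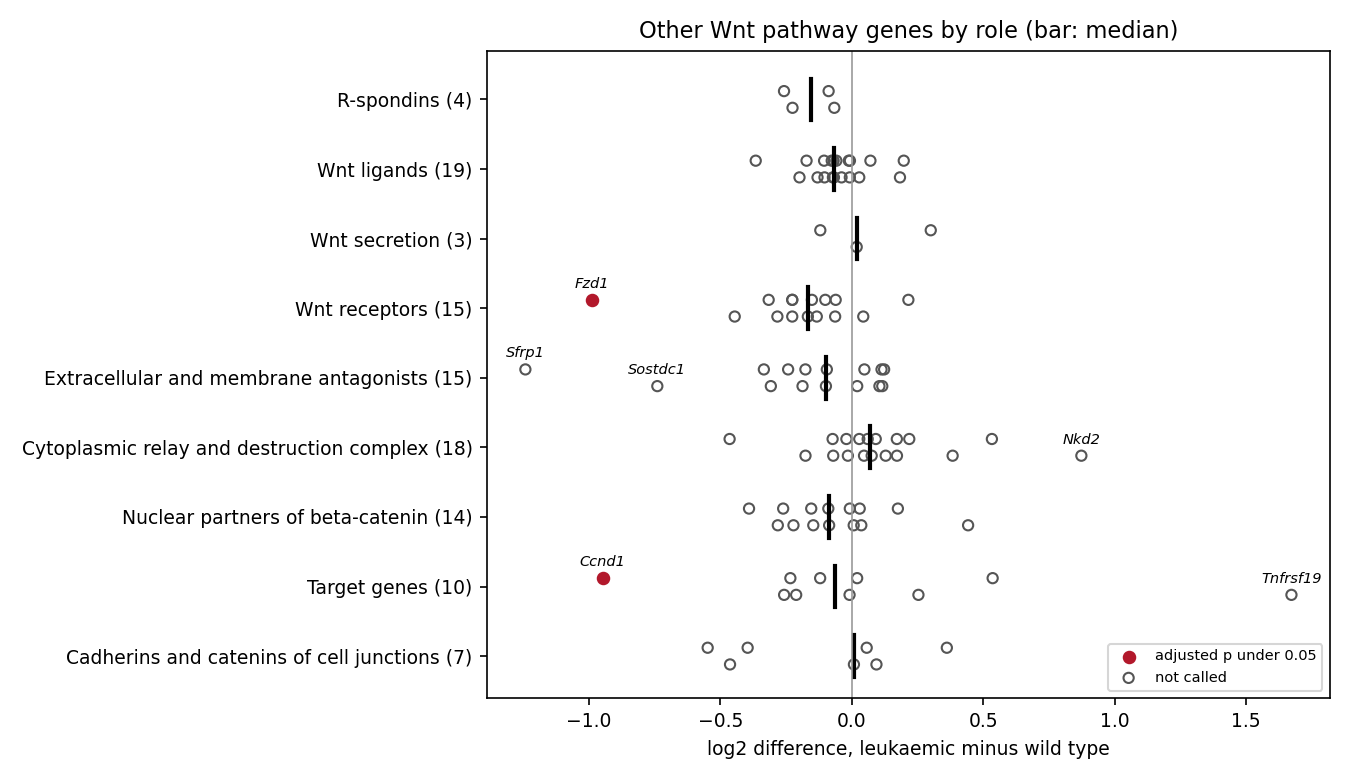
Log2 difference between leukaemic and wild type spleens (horizontal axis) of 105 other Wnt pathway genes in 9 role groups, with group sizes in parentheses. Filled red points passed limma's adjusted p of 0.05, open points did not, and black bars are group medians; the filled points are Fzd1 at -0.99 and Ccnd1 at -0.95.

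No ligand of the LGR receptors or Frizzleds passed, but most are not shown to be above background. The organ-restricted genes had wild type means of up to 8.01. Those of the R-spondins (6.18 to 7.91) and of every Wnt ligand gene but Wnt10a (8.21) were no higher. Limma called 0 of 4 R-spondin genes (0 at an unadjusted p under 0.05) and 0 of 19 Wnt ligand genes (1 at an unadjusted p under 0.05). Rspo3 read 6.32 and 6.29 in leukaemic spleens, against 6.56 and 6.57 in wild type spleens, a difference of -0.26 (SE 0.13, limma adjusted p = 0.35). All 4 R-spondins had differences between -0.26 and -0.07. Both leukaemic spleens were lower for Rspo1 and Rspo3, but the groups overlapped for Rspo2 and Rspo4. In wild type replicate 1 these read 6.04 and 6.66, below both leukaemic spleens. In wild type replicate 2, where dim genes read higher, they read 6.33 and 7.12, above both leukaemic spleens. The R-spondin list mean was 6.76 and 6.69 in leukaemic spleens, against 6.78 and 6.996 in wild type spleens. Wnt10a read 7.88 and 7.81 in leukaemic spleens, against 8.11 and 8.30 in wild type spleens (-0.37, SE 0.14, limma adjusted p = 0.21). None of the 19 Wnt ligand genes differed by more than 0.37 in size. Of 3 genes for release and inactivation of Wnt proteins 0 were called (0 at an unadjusted p under 0.05); Wls, the carrier that brings Wnt proteins to the cell surface, read 10.95 and 11.29 in leukaemic spleens, against 10.91 and 10.73 in wild type spleens (0.30, SE 0.17, adjusted p = 0.39). That difference was 0.47 without leukaemic replicate 1 and 0.13 without leukaemic replicate 2.

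Fzd1, a Frizzled receptor gene, was the 1 of 15 Wnt receptor genes that limma called, and it was lower. It read 8.37 and 8.59 in leukaemic spleens, against 9.63 and 9.31 in wild type spleens, a difference of -0.99 (SE 0.17, limma adjusted p = 0.039). Both leukaemic spleens were well under both wild type spleens. Adjusted p was 0.051 after quantile normalization, 0.099 without leukaemic replicate 1 and 0.15 without either wild type mouse, with differences between -1.15 and -0.83 in these fits. The co-receptor gene Lrp5 differed by -0.45 (SE 0.14, adjusted p = 0.14) and Lrp6 by 0.04 (SE 0.14, adjusted p = 0.92), both named after their values were seen.

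Among 15 genes of secreted and membrane antagonists limma called 0 (2 at an unadjusted p under 0.05). Sostdc1, a secreted inhibitor that binds the Wnt co-receptors, was nearest to the threshold (-0.74, SE 0.14, limma adjusted p = 0.0503). It read 6.28 and 6.30 in leukaemic spleens, against 7.11 and 6.95 in wild type spleens. Its wild type mean of 7.03 was in the range of the organ-restricted genes. Sfrp1, which encodes a secreted Frizzled-related decoy and was named after its values were seen, had the most negative difference of the 105 genes, -1.24 (SE 0.30, adjusted p = 0.075). It read 7.37 in both leukaemic spleens, against 9.10 and 8.12 in wild type spleens, so the wild type mice were 0.97 apart.

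In the cytoplasmic relay and destruction complex limma called 0 of 18 genes (3 at an unadjusted p under 0.05). Amer1, which helps hold the destruction complex at the membrane, read 9.11 and 9.01 in leukaemic spleens, against 8.60 and 8.45 in wild type spleens (0.53, SE 0.14, adjusted p = 0.098). Of 14 nuclear partners of beta-catenin 0 were called by limma (2 at an unadjusted p under 0.05); Cby1, a beta-catenin antagonist, read 8.61 and 8.54 in leukaemic spleens, against 8.10 and 8.16 in wild type spleens (0.44, SE 0.14, adjusted p = 0.13). Of 7 cadherin and catenin genes of cell junctions limma called 0 (4 at an unadjusted p under 0.05, where 3989 of all 19297 genes were). Jup, or plakoglobin, read 9.30 and 9.47 in leukaemic spleens, against 10.004 and 9.86 in wild type spleens (-0.55, SE 0.15, limma adjusted p = 0.097).

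Of 10 measured genes known as targets of the pathway in various tissues, 1 was called lower and 0 higher. Ccnd1, which encodes cyclin D1 and has many regulators besides beta-catenin, read 8.97 and 9.15 in leukaemic spleens, against 10.08 and 9.93 in wild type spleens. The groups lay well apart, with a difference of -0.95 (SE 0.15, limma adjusted p = 0.033). Adjusted p was 0.12 without leukaemic replicate 1 and 0.15 without either wild type mouse. Myc, another gene with many inputs, differed by 0.54 (SE 0.16, adjusted p = 0.12). The narrower targets Sp5 and Ascl2 differed by 0.02 (SE 0.14, adjusted p = 0.97) and -0.23 (SE 0.14, adjusted p = 0.42), with wild type means of 6.51 and 6.68 in the range of the organ-restricted genes. Myc, Sp5 and Ascl2 were named after their values were seen.

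The leukaemic mice disagreed strongly on a handful of Wnt genes, all named after their values were seen. Over the 9 genes and the 105 others, 4 lay at least 1 apart between the leukaemic spleens (3.51%, against 1.48% of all genes), and all 4 were higher in leukaemic replicate 1. The median gap between the leukaemic spleens was 0.108 for these Wnt genes, against 0.123 for all genes. Tnfrsf19, a TNF receptor family gene also called Troy that marks intestinal stem cells together with Lgr5, read 10.03 and 7.88 in leukaemic spleens, against 7.26 and 7.30 in wild type spleens (difference 1.67, SE 0.60, limma adjusted p = 0.18). Bmp4, a signalling ligand, read 9.82 and 7.61 in leukaemic spleens, against 8.79 and 8.13 in wild type spleens. Leukaemic replicate 1 was thus the highest and leukaemic replicate 2 the lowest of the 4 spleens for Bmp4, as for Lgr4. Nkd2, a cytoplasmic inhibitor of Dishevelled, read 8.80 and 7.68 in leukaemic spleens, against 7.40 and 7.33 in wild type spleens (difference 0.87, SE 0.33, adjusted p = 0.20).

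The gap of Tnfrsf19 between the leukaemic mice was 2.149, and 0.15% of all genes had a gap as large or larger. The gap of Lgr4 was 1.36 (0.617% of all genes) and that of Lgr5 was 0.61 (4.37%), again higher in replicate 1. Axin2 had a gap of 0.02 and Lef1 of 0.27. The leukaemic mice differed in sex, age and spleen weight, and T cell list means were 8.26 in replicate 1 and 8.85 in replicate 2; the part of these in the gaps was not tested.

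**Figure D4:**
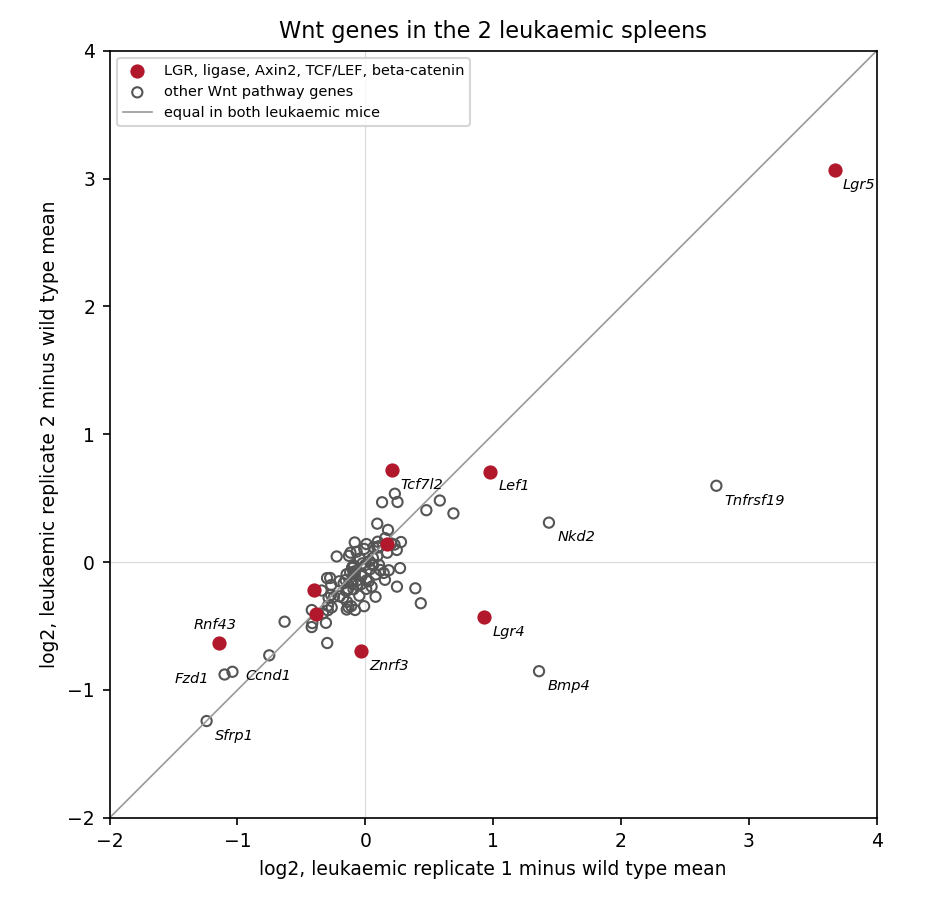
Log2 value of each leukaemic spleen minus the wild type mean, replicate 1 on the horizontal and replicate 2 on the vertical axis, for 9 Wnt pathway genes (red) and 105 others (open). Points on the grey line are equal in both mice. Lgr5, at 3.67 and 3.06, lies 0.61 to the right of that line, and Tnfrsf19, Bmp4, Lgr4 and Nkd2 lie at least 1 to its right.

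Profiles over the 4 arrays were compared by Euclidean distance between log2 values centred on each gene's own mean. Antigen receptor segments, symbols that are only model numbers, and any symbol of 2 letters followed only by digits were passed over. Some well-known genes carry such symbols, so closer genes may have been missed. Of the genes kept, the closest to Lgr5 were Vpreb1 (0.39), Bcat1 (0.51), Prkaa2 (0.52), Ptgr1 (0.53) and Mei4 (0.62). Vpreb1, of the surrogate light chain, read 9.93 and 9.82 in leukaemic spleens, against 6.48 and 6.54 in wild type spleens, a difference of 3.36 like that of Lgr5. The closest to Lef1 were Ctnnal1 (0.02), Hmgb1-rs17 (0.03), Sinhcaf (0.04), Bdh1 (0.05) and Mtrf1l (0.06), with differences between 0.83 and 0.90. Hmgb1-rs17 is named as a sequence related to Hmgb1, whose transcripts its probes may also read. With 4 arrays in 2 groups, a short distance says little more than that size and spread of the difference are alike.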

How the data were processed

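Total RNA of 4 spleens was read on Affymetrix whole-transcript arrays, 1 mouse per array. Values are log2 expression, 1 for each probe set and spleen, as deposited by the authors; RMA, R 2.15.0 and limma 3.12.1 are named in the submitters' processing notes, without settings. Of 23309 probe sets, 20729 had 1 gene symbol in the platform annotation, 1174 several and 1406 none; only the first were named. Groups and replicate numbers came from sample titles, and the series design describes individual mice as replicates.

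The groups were fitted with limma 3.58.1 under R 4.3.3, using lmFit and eBayes with no covariate and no filter. Each of 19297 genes was represented by its probe set of highest mean, and p-values were adjusted by Benjamini-Hochberg over all of them. The fit had 2 residual and 4.83 prior degrees of freedom. The smallest exact permutation p in 2 against 2 mice is 0.333. Precision is limited by the number of arrays. The script was tested on simulated data.

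The 10 genes and all lists were chosen with earlier results of these data known. Named besides the 10 were up to 3 called genes per pathway role and up to 2 per marker list. A list without calls gave 1 gene of smallest p. The 5 nearest profiles of Lgr5 and of Lef1 were named too, after passing over the symbols described with them. Others are marked. Start-site sequences are RefSeq's (GRCm38.p6). Tables and figures used Python 3.11.15, numpy 2.4.6, pandas 2.3.3 and matplotlib 3.10.9. Alternatives covered scaling, a filter on dim genes, the variance prior, probe set choice, unnamed probe sets, a replicate block and each mouse left out.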

Additional observations from a re-analysis of the deposited data

How the results depend on the processing

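The number of genes called over the whole table was 475 as reported, 261 after quantile normalization, 965 with an intensity trend and robust prior, 1693 with the replicate block, and 0 to 1043 with a mouse left out (38 without wild type replicate 1, 0 without wild type replicate 2, 491 without leukaemic replicate 1, 1043 without leukaemic replicate 2); in those last fits 1 residual degree of freedom is left and the lone mouse is assumed to vary like the other group. With arrays centred on their medians, 350 genes were called higher and 147 lower, so 70.4% were higher, against 58.1% as reported. The number of called Wnt genes outside the 10 was 2 as reported, 1 after quantile normalization, 6 with the replicate block and 0 to 6 with a mouse left out. Of the 9 measured genes, 1 was called as reported, 2 after median centring (Lgr5 and Lef1), 3 with a trend and robust prior (Rnf43 too), 3 with the replicate block and 0 to 4 with a mouse left out. The cause of these shifts was not tested. The replicate number is not given as a shared litter or day, and deviations of same-numbered arrays had a correlation of -0.089 across genes, so the numbers name mice and do not pair them. Differences of the 9 genes kept their sign in each of the 11 alternatives that held them, except Lgr4 without leukaemic replicate 1 (-0.43); Lgr5 ranged from 3.06 to 3.67, Lef1 from 0.69 to 0.999, Rnf43 from -1.14 to -0.63 and Axin2 from -0.45 to -0.31. The call of Sostdc1 appeared with a trend and robust prior (adjusted p = 0.033), the probe set of highest variance (0.049) and the replicate block (0.017). Lgr4 left the table when the dimmest 33.3% of genes were dropped. Detection calls were not used here: the wild type means of 4 of the 9 genes and of 62 of the 105 others were no higher than the highest of the organ-restricted genes, so differences of those genes are not exact folds.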

Other observations

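Umod, a kidney gene on the list of organ-restricted genes, was the member of that list with the largest difference, a value noticed after the data were seen. It read 9.09 and 7.74 in leukaemic spleens, against 6.54 and 6.52 in wild type spleens (1.89, SE 0.39, limma adjusted p = 0.059). Limma called 0 of the 24 genes of that list (1 at an unadjusted p under 0.05, where 3989 of all 19297 genes were). The median difference of the 24 was -0.10. Like Tnfrsf19 and Nkd2, Umod was higher in leukaemic replicate 1 than in replicate 2, and both leukaemic values were above both wild type ones.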
